A study of Mus musculus with 8 samples.

Results

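Chemokines are small secreted proteins that direct the movement of leukocytes, and their receptors sit on the surface of the cells they direct. Their transcripts were described here across the regions of WT and TIGAR-knockout (TKO) mouse hearts after myocardial infarction (MI). A gene was included if its symbol named a chemokine ligand (Ccl, Cxcl, *Cx3cl1*, or *Xcl1*) or a chemokine receptor (Ccr, Cxcr, *Cx3cr1*, or the atypical receptors Ackr) and it had any count. That rule used the names only and no measured value, and it gave 52 of the 16964 genes with any count, made up of 34 ligands and 18 receptors.

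The study asked whether loss of TIGAR, a p53-regulated phosphatase that restrains glycolysis, changes the heart after MI. Bulk RNA was sequenced from 8 libraries, 1 for each genotype in the left ventricle (LV), the infarct zone, the border zone, and the remote zone, so that no group had a replicate. The 2 genotypes were WT and TKO, the latter carrying a whole-body disruption of *Tigar* in mice derived from a C57BL/6N targeted line, and no other agent or allele is named for these libraries. Mice were male and were 16 weeks of age when the left anterior descending coronary artery was ligated, and the time at which the zones were taken is not given in the sources used here. RNA from 3 mice was pooled for each infarct zone library, whereas the number of mice behind the other libraries, and whether the LV came from sham-operated or unoperated hearts, are not given in the sources used here. The knockout was whole-body, so leukocytes carried it as well as heart muscle.

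Total counts lay between 27429240 and 33799249 per library. *Tigar* itself was at 25.2 to 71.9 CPM (counts as a share of the library, scaled to the usual common size) in the 4 WT libraries and 1.97 to 2.89 CPM in the 4 TKO libraries, as labelled. The summed level of 5 cardiomyocyte markers (*Myh6*, *Tnnt2*, *Tnni3*, *Actn2*, and *Ryr2*) was 3860.0 CPM in the WT infarct zone and 8812 CPM in the TKO infarct zone, against 12918 to 19525 CPM in the other 6 libraries, so that both infarct libraries stood apart as labelled. They also carried transcripts of lung epithelium, whose 7 measured markers summed to 187 and 462 CPM in the WT and TKO infarct zones and 38.9 CPM in the WT remote zone, against 2.09 to 8.12 CPM in the other 5 libraries. The WT LV library stood apart in its adipocyte markers (*Adipoq*, *Plin1*, and *Cfd*), at 56.5 CPM, against 0.888 to 13.5 CPM in the other 7.

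Chemokine receptors are G protein-coupled receptors that detect a gradient of ligand and steer the cell along it, while the atypical receptors bind ligands without driving migration and so remove or reposition them. In the injured heart, CXCR2 ligands are known for drawing neutrophils, CCR2 ligands for drawing inflammatory monocytes, and CXCL12 for retaining and recruiting CXCR4-bearing cells. Other pairs act in lymphoid traffic, with CCL19 and CCL21 guiding CCR7-bearing dendritic cells and T cells and CXCL13 guiding CXCR5-bearing B cells. In bulk tissue, fewer cells of a type and less RNA per cell cannot be told apart.

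Many members lie in arrays of neighbouring genes, and the placement was taken from GENCODE M21 on GRCm38. *Ccl2* (82035571 to 82037453), *Ccl7*, *Ccl11*, *Ccl12*, and *Ccl8* follow one another on chromosome 11, and *Ccl5*, *Ccl9*, *Ccl6*, *Ccl3*, and *Ccl4* (83662584 to 83664683) form another block on the same chromosome. *Cxcl5*, *Cxcl3*, *Cxcl15*, *Cxcl1*, and *Cxcl2* (90903871 to 90905938) form a block on chromosome 5. *Ccr9*, *Cxcr6*, *Ccr1*, and *Ccr2* (124101950 to 124113557) are neighbours on chromosome 9. Near-identical copies make some counts uncertain, because the counting could split their reads. The share of 31-base stretches found in another gene was 80.6% for *Ccl21a*, 97.1% for *Ccl21d*, 100% for *Ccl21b*, 58.8% for *Ccl19*, 57.0% for *Ccl27a*, and 23.0% for *Ackr1*, and it was below 8% for every other member.

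The stretch before the start of 3 neutrophil attractants is shown here because *Cxcl1*, *Cxcl2*, and *Cxcl3* hold the same letters at the binding motif of NF-kappaB, a transcription factor that drives inflammatory genes, while their levels followed different courses. Each sequence runs from 120 to 31 bases before the RefSeq transcription start in GRCm38.p6, 5′ to 3′ on the strand of the gene, and capitals mark the overlapping matches to the NF-kappaB consensus. *Ccl3*, whose course was like that of *Cxcl2*, is given for comparison and had no match.
Cxcl1, chr5:90891125-90891214, plus strand: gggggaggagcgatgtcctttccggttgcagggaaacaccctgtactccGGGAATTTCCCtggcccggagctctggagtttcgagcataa
Cxcl2, chr5:90903779-90903868, plus strand: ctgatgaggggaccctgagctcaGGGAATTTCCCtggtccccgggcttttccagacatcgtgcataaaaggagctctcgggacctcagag
Cxcl3, chr5:90785981-90786070, plus strand: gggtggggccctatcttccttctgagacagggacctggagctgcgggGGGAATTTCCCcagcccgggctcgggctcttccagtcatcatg
Ccl3, chr11:83649409-83649498, minus strand: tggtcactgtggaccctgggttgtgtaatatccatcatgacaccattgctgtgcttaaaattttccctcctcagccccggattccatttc
The motif was searched by its name alone, as the NF-kappaB consensus of 10 letters on both strands, in the 250 bases before each start. A match was present in 2382 of 32851 RefSeq windows (7.25%) and at 8 of the 39 members that had a window (20.5%), which were *Ackr2*, *Ccl9*, *Ccr1*, *Ccr6*, *Cxcl1*, *Cxcl2*, *Cxcl3*, and *Cxcl10*. The first share counts windows and the second counts members, which had 43 windows among them, so the shares are in unlike units. A match is a description of these letters and does not show binding.

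Levels are given as CPM with library sizes scaled by the trimmed mean of M values (TMM), and levels of different genes are compared only as CPM per kilobase of exon. Averaged over the 8 libraries, *Ccl21a* (38.5 CPM per kilobase), the scavenging receptor *Ackr3* (21.4), and its ligand *Cxcl12* (18.6) led the family. *Ccl21d* (15.6), *Ccl6* (14.4), *Cxcl14* (11.6), *Ccl3* (10.7), and *Ccl8* (10.7) followed. Of the 52 members, 37 had a mean of at least 1 CPM and entered the tests, and 15 did not (*Ccl17*, *Ccl21b*, *Ccl22*, *Ccl25*, *Ccl28*, *Cxcl11*, *Xcl1*, *Ccr4*, *Ccr6*, *Ccr7*, *Ccr10*, *Cxcr3*, *Cxcr5*, *Ackr1*, and *Ackr2*).

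**Figure D1:**
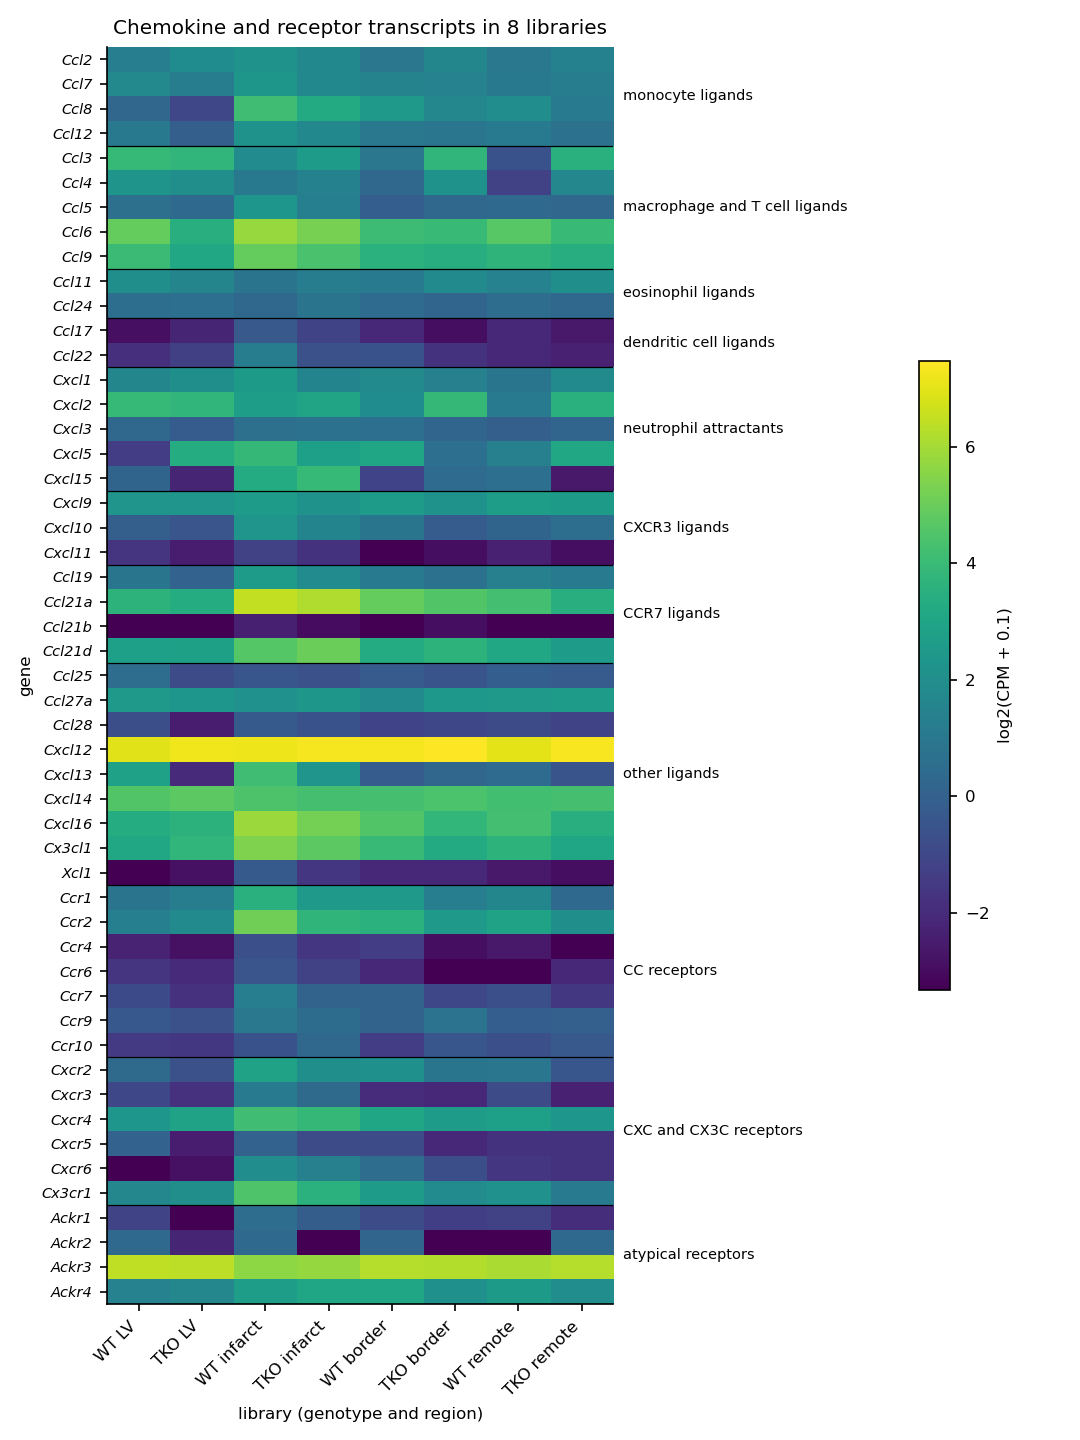
Level of 51 members in each of the 8 libraries, as log2(CPM + 0.1) by colour, with genes in rows grouped by role and libraries in columns. *Cxcl12* and *Ackr3* are bright in every column, and receptors such as *Ccr2* are brightest in the 2 infarct zone columns.

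The infarct zone was compared with the LV to show which chemokine genes marked the injured tissue in both genotypes. In WT hearts 30 of the 52 members were at least 2-fold higher in the infarct zone than in the LV, beside 23.3% of all genes, and in TKO hearts 28 were, beside 22.1%. A test with the 2 genotypes standing in for replicates (quasi-likelihood test of edgeR, Benjamini-Hochberg adjusted over 12999 genes) called 22 of the 37 tested members, 21 higher and 1 lower. Among all genes tested, the share called higher was 28.2% and the share called lower 28.6%. The median log2 infarct-to-LV ratio over the 52 members was 1.36 in WT and 1.24 in TKO hearts, beside 0.12 and 0.11 over all genes. In such a test WT and TKO take the place of replicates, and its *P* values speak to what the genotypes share, not to differences between mice. With total counts in place of TMM, the median of all genes itself moved to 0.91 in WT and 0.63 in TKO hearts, the calls over all genes became 7878 higher and 1079 lower, and those among members 27 higher and 0 lower. *Cxcr6*, *Cxcl15*, and *Ccr9* reached the mean of 1 CPM only through the infarct zone libraries, so that their entry into the test already required a difference. They are among the 21 members called higher, and their calls add no independent evidence of a rise.

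With TMM scaling the monocyte chemoattractant ligands did not move together. *Ccl8*, a member of that group made by macrophages, was at 1.1 CPM in WT and 0.386 in TKO hearts in the LV, 17.9 CPM in WT and 9.7 in TKO hearts in the infarct zone, 5.65 CPM in WT and 3.1 in TKO hearts in the border zone, and 3.78 CPM in WT and 2.06 in TKO hearts in the remote zone. Both infarct libraries were the highest of their genotype and both LV libraries the lowest. *Ccl8* rose in the infarct zone by log2 4.26 ± 0.24 SE, adjusted *P* = 0.000237, a 19.1-fold difference. Each SE given here was worked back from the F statistic of the edgeR test. *Ccl12* rose too (log2 1.51 ± 0.34 SE, adjusted *P* = 0.0097), whereas *Ccl2*, the best known CCR2 ligand, was at 2.37 and 3.75 CPM in the WT and TKO LV and 4.58 and 3.16 CPM in the infarct zones and did not pass the test (adjusted *P* = 0.373). *Ccl7* did not pass it either (log2 0.60 ± 0.29 SE, adjusted *P* = 0.125). This split depended on the scaling. With total counts in place of TMM the edgeR test called *Ccl2* (log2 1.11, adjusted *P* = 0.0421) and *Ccl7* (log2 1.30, adjusted *P* = 0.0103) higher as well. *Ccr2*, the receptor of inflammatory monocytes for *Ccl2*, *Ccl7*, and *Ccl12*, was at 2.45 CPM in WT and 3.52 in TKO hearts in the LV, 35 CPM in WT and 13.1 in TKO hearts in the infarct zone, 11.8 CPM in WT and 5.56 in TKO hearts in the border zone, and 7.3 CPM in WT and 4.05 in TKO hearts in the remote zone. It was higher in each infarct library than in the other libraries of its genotype and rose by log2 2.83 ± 0.43 SE, adjusted *P* = 0.00239.

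Among the ligands that draw macrophages and T cells, *Ccl6* (log2 1.26 ± 0.29 SE, adjusted *P* = 0.0109), *Ccl9* (log2 1.06 ± 0.17 SE, adjusted *P* = 0.00305), and *Ccl5* (log2 1.44 ± 0.40 SE, adjusted *P* = 0.0223) rose. *Ccl3* and *Ccl4*, products of activated macrophages, were instead lower in the infarct zone than in the LV in both genotypes. *Ccl3* was 0.24-fold (95% interval 0.198 to 0.29) the LV level in WT and 0.444-fold (95% interval 0.373 to 0.527) in TKO hearts, and with log2 -1.81 ± 0.91 SE, adjusted *P* = 0.133 it did not pass the test. *Ccr1*, a receptor for several of these ligands, rose (log2 1.93 ± 0.44 SE, adjusted *P* = 0.0103). The eosinophil attractants *Ccl11* and *Ccl24* did not pass the test (log2 -0.88 and 0.01, adjusted *P* = 0.0704 and 0.99).

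The CXC ligands that draw neutrophils differed among themselves. Of the 5, *Cxcl15* alone was called in the main fit, and *Cxcl1* (log2 0.29 ± 0.48 SE, adjusted *P* = 0.632), *Cxcl2* (log2 -1.05 ± 0.60 SE, adjusted *P* = 0.177), *Cxcl3* (log2 0.64 ± 0.36 SE, adjusted *P* = 0.173), and *Cxcl5* (log2 1.28 ± 1.50 SE, adjusted *P* = 0.493) were not. With total counts in place of TMM *Cxcl3* was called higher too (log2 1.33, adjusted *P* = 0.0168). *Cxcl15*, which is known as lungkine for its expression in lung epithelium, was at 1.02 CPM in WT and 0.116 in TKO hearts in the LV, 9.94 CPM in WT and 15.1 in TKO hearts in the infarct zone, 0.357 CPM in WT and 1.28 in TKO hearts in the border zone, and 1.45 CPM in WT and 0.0665 in TKO hearts in the remote zone. The 2 infarct libraries were far above the others, and in the LV and remote zone the TKO library was near the limit that 3 counts set. It rose by log2 4.60 ± 1.24 SE (adjusted *P* = 0.0193), but it entered the test only through the infarct zone libraries. The 3 libraries highest in *Cxcl15* were the 3 highest in lung epithelium markers, among which *Sftpc*, the surfactant protein of alveolar cells, was at 1.13, 115, 4.19 and 18.3 CPM in the WT LV, infarct, border and remote libraries and 0.657, 296, 4.55 and 1.16 CPM in the TKO libraries in that order. All 7 lung markers were called higher in the infarct zone, and their part in the *Cxcl15* values was not tested. *Cxcr2*, the neutrophil receptor of this group, was at 1.24 CPM in WT and 0.541 in TKO hearts in the LV, 7.36 CPM in WT and 4 in TKO hearts in the infarct zone, 4.16 CPM in WT and 1.75 in TKO hearts in the border zone, and 1.81 CPM in WT and 0.631 in TKO hearts in the remote zone. It rose in the infarct zone by log2 2.73 ± 0.29 SE, adjusted *P* = 0.000952, as did the neutrophil markers *S100a8* and *S100a9*, which were at 0.511 and 0.766 CPM in the WT LV and 12.7 and 16.1 CPM in the WT infarct zone.

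The interferon-induced CXCR3 ligands split in the same way, with *Cxcl10* called (log2 2.33 ± 0.44 SE, adjusted *P* = 0.0052) and *Cxcl9* not (log2 0.13 ± 0.19 SE, adjusted *P* = 0.569). With total counts in place of TMM *Cxcl9* was called higher as well (log2 0.82, adjusted *P* = 0.0193). *Cxcl9* was at 4.52 to 6.48 CPM in all 8 libraries. *Cxcl11*, annotated as a polymorphic pseudogene in the reference strain, had 0 to 14 counts per library. *Cxcr3*, their receptor on T and NK cells, did not reach the mean of 1 CPM and had 87 and 44 counts in the WT and TKO infarct zones against 3 to 14 counts elsewhere.

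All 3 tested ligands of the CCR7 axis rose, namely *Ccl21a* (log2 2.84 ± 0.14 SE, adjusted *P* = 0.000201), *Ccl21d* (log2 2.07 ± 0.22 SE, adjusted *P* = 0.00104), and *Ccl19* (log2 1.84 ± 0.28 SE, adjusted *P* = 0.00236), within the limit that their copies share sequence. *Ccl21a*, which holds and attracts cells with CCR7, was at 12.6 CPM in WT and 10.1 in TKO hearts in the LV, 88.9 CPM in WT and 72.8 in TKO hearts in the infarct zone, 30.5 CPM in WT and 22.9 in TKO hearts in the border zone, and 19 CPM in WT and 11.3 in TKO hearts in the remote zone. Both infarct libraries were the highest, followed by the border zone of either genotype. Of 4 lymphatic endothelial markers, *Flt4* and *Pdpn* were called higher in the infarct zone, *Prox1* was called lower, and *Lyve1* was not called, while their sum lay between 91.6 and 109.7 CPM in all 8 libraries. Their part in the *Ccl21a* values was not tested. *Ccr7*, which fell short of the mean of 1 CPM, had 101 and 35 counts in the WT and TKO infarct zones and 5 to 30 counts in the other libraries.

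Both transmembrane chemokines rose. *Cxcl16*, the ligand of CXCR6 and a scavenger receptor for oxidised lipid, was at 10.2 CPM in WT and 12.1 in TKO hearts in the LV, 58.4 CPM in WT and 37 in TKO hearts in the infarct zone, 23.4 CPM in WT and 14.2 in TKO hearts in the border zone, and 18.8 CPM in WT and 11.1 in TKO hearts in the remote zone and rose by log2 2.04 ± 0.25 SE, adjusted *P* = 0.0014. *Cx3cl1*, also called fractalkine, was at 8.47 CPM in WT and 13.6 in TKO hearts in the LV, 41.6 CPM in WT and 27.1 in TKO hearts in the infarct zone, 15.8 CPM in WT and 9.68 in TKO hearts in the border zone, and 12.4 CPM in WT and 8.24 in TKO hearts in the remote zone and rose by log2 1.58 ± 0.33 SE, adjusted *P* = 0.00742. Their receptors were higher as well, *Cxcr6* with an adjusted *P* of 0.00108, though it entered the test only through the infarct zone libraries. *Cxcr6*, found on resident T cells, had 0 and 1 counts in the WT and TKO LV and 161 and 89 counts in the infarct zones, so that the WT infarct zone was at least 34.7-fold higher than the LV when the LV was set to 3 counts. *Cx3cr1*, a marker of patrolling monocytes and of resident macrophages, rose by log2 2.17 ± 0.34 SE, adjusted *P* = 0.0025.

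*Cxcl12* and its 2 receptors differed in their course. *Cxcl12* was at 127 CPM in WT and 150.4 in TKO hearts in the LV, 146 CPM in WT and 162 in TKO hearts in the infarct zone, 158 CPM in WT and 177 in TKO hearts in the border zone, and 130.0 CPM in WT and 165 in TKO hearts in the remote zone. The libraries were close to each other, and it did not pass the infarct test (log2 0.15 ± 0.11 SE, adjusted *P* = 0.283). With total counts in place of TMM it was called higher (log2 0.84, adjusted *P* = 0.00145). *Cxcr4*, its signalling receptor, rose by log2 1.36 ± 0.26 SE, adjusted *P* = 0.00491. *Ackr3*, which takes up CXCL12 without G protein signalling, was at 87.6 CPM in WT and 84.6 in TKO hearts in the LV, 49.7 CPM in WT and 55 in TKO hearts in the infarct zone, 76.2 CPM in WT and 74.3 in TKO hearts in the border zone, and 68.5 CPM in WT and 76.1 in TKO hearts in the remote zone. The infarct libraries were the lowest of their genotype, and in the main fit *Ackr3* was the only tested member called lower (log2 -0.72 ± 0.11 SE, adjusted *P* = 0.00224). This fall depended on the scaling, since with total counts in place of TMM the log2 value was -0.03 and the adjusted *P* was 0.84. *Ackr4*, which clears CCL19 and CCL21, rose by log2 1.34 ± 0.35 SE, adjusted *P* = 0.0183. *Ccr9*, which entered the test only through the infarct zone libraries, was higher by log2 1.38 ± 0.42 SE, adjusted *P* = 0.031. *Cxcl14* (log2 -0.29, adjusted *P* = 0.0697), *Ccl27a* (log2 -0.16, adjusted *P* = 0.552), and *Cxcl13* (log2 2.02, adjusted *P* = 0.115) did not pass. With total counts in place of TMM *Cxcl13* was called higher (log2 2.75, adjusted *P* = 0.0208).

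**Figure D2:**
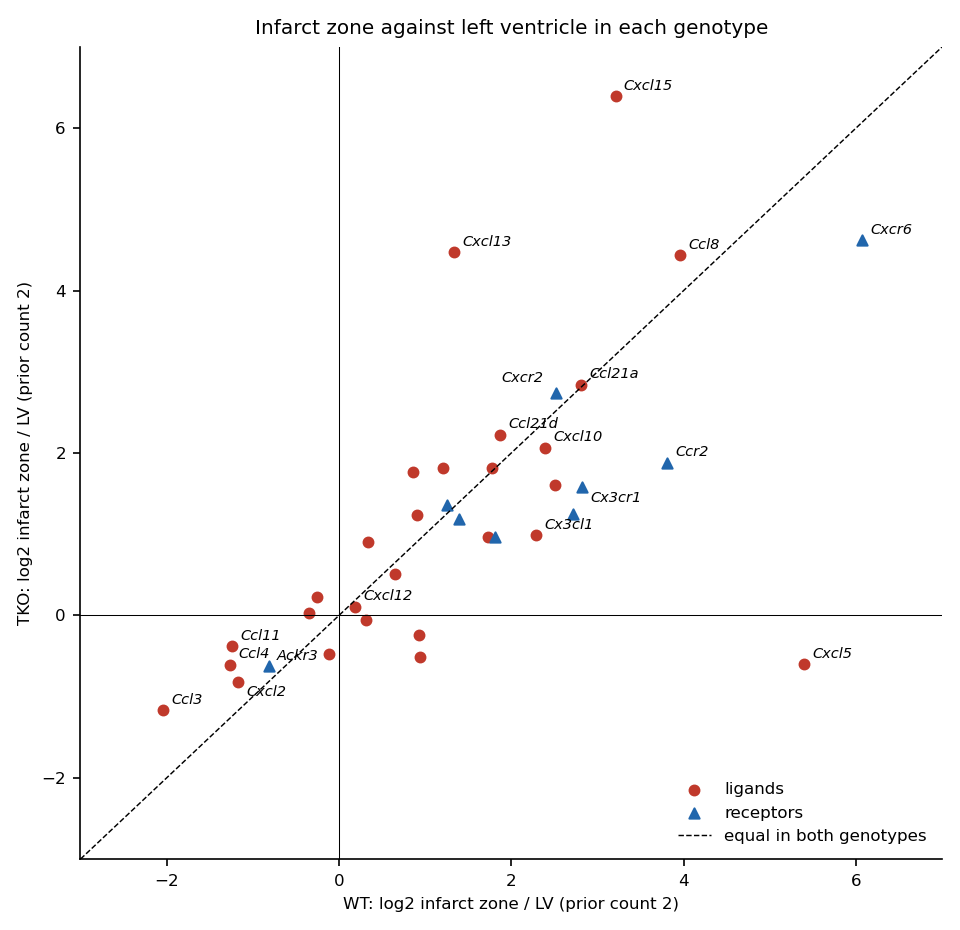
Log2 ratio of the infarct zone to the LV in WT (horizontal axis) and TKO hearts (vertical axis) for 36 tested members, after a prior count of 2, with 1 library behind each term. Points near the dashed line had like ratios in both genotypes, *Cxcl5* lies far below it, and *Cxcl13* and *Cxcl15* lie above it.

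Leukocyte transcripts moved with these genes. The summed level of *Ptprc*, *Laptm5*, *Coro1a*, *Cd52*, and *Lcp1* was 79.1, 389, 136 and 97.6 CPM in the WT LV, infarct, border and remote libraries and 58, 236, 89.1 and 68.1 CPM in the TKO libraries in that order, and all 5 were called higher in the infarct zone. All 10 macrophage and monocyte markers, 3 of 3 tested neutrophil markers, 4 of 4 tested T cell markers, and all 5 fibroblast markers were also called higher there, while all 5 cardiomyocyte markers were called lower. The shares over all genes tested were 28.2% called higher there and 28.6% called lower. The part of these markers in the chemokine values was not tested.

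Some genes of the chemokine pathway outside the symbol rule were called higher in the infarct zone. Of all genes tested, 28.2% were called higher there and 28.6% lower. Of 21 genes that act downstream of the receptors, 14 were called higher, among them *Rac2* and *Dock2*, which drive leukocyte motility, and 2 were called lower, *Rgs2* among them. *Dock2* was at 5.62, 19, 6.4 and 5.13 CPM in the WT LV, infarct, border and remote libraries and 2.86, 14.4, 4.72 and 4.78 CPM in the TKO libraries in that order. Of 7 proteases that trim or shed chemokines, 6 were called higher, including *Mmp2* at 49.7, 452, 181 and 84.8 CPM in the WT LV, infarct, border and remote libraries and 56.4, 397, 96.8 and 61.7 CPM in the TKO libraries in that order, and *Adam17* was not. Of 7 further chemokines, ligands, and receptors named otherwise, 3 were called higher (*Pf4*, *Cmklr1*, and *Xcr1*) and none lower. Among 7 tested inducers, *Il1b*, *Nfkb1*, and *Irf1* were called higher, whereas *Tnf*, *Rel*, and *Rela* were among those that were not.

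Away from the infarct the family moved less. In the border zone 13 members were at least 2-fold above the LV in WT hearts (7.89% of all genes were) and 11 in TKO hearts (7.22%). The test across genotypes called 2 of 37 members, both higher, beside 0.715% of all genes called in either direction. These were *Ccl8* (log2 2.60 ± 0.24 SE, adjusted *P* = 0.03) and *Ccl21a* (log2 1.23 ± 0.14 SE, adjusted *P* = 0.0334). Both calls were lost without either border zone library, and without the TKO LV library 7 of 38 members were called, beside 2.97% of all genes. In the remote zone 5 members were at least 2-fold above the LV in WT hearts (5.59% of all genes) and 9 in TKO hearts (5.77%). No member was called there by edgeR, nor was any other gene. An unadjusted *P* under 0.05 was found for 5 of 37 members and for 1378 of the 12999 genes tested. DESeq2 called 1 member beside 1.25% of all genes, *Ccl8*, which was the nearest in edgeR too (log2 2.02 ± 0.24 SE, adjusted *P* = 0.127).

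TKO was compared with WT within each region to describe the family between genotypes, as a ratio of 1 library to 1 library with a 95% interval that covers counting error only. The median log2 ratio over the 52 members was -0.20 in the LV, -0.62 in the infarct zone, -0.33 at the border, and -0.27 in the remote zone, while that of all genes lay between -0.01 and 0. In the LV 1 member was at least 2-fold higher in TKO (4.19% of all genes) and 11 were at least 2-fold lower (7.44%). The infarct zone had 0 higher (4.38%) and 11 lower (4.73%). With total counts in place of TMM 23 were lower there (8.35%), and the median log2 ratio of all genes itself moved to -0.30. The border zone had 4 higher (3.96%) and 12 lower (6.4%), and the remote zone 6 higher (4.37%) and 6 lower (4.45%).

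With the 4 regions as blocks, edgeR called no member between genotypes, beside 0.138% of all genes. Of the 37 members, 13 had an unadjusted *P* under 0.05, 11 of them lower in TKO. Among the 12999 genes tested, 2109 had such a *P*, 1143 of them lower in TKO. DESeq2 called 3, all lower in TKO (*Ccl8*, *Cxcr2*, and *Ccl21a*), beside 2.63% of all genes, of which 128 were higher and 214 lower. Without the 2 LV libraries edgeR called 5 of 38 members, all lower in TKO, beside 0.61% of all genes called. These were *Ccr1*, *Ccr2*, *Cx3cr1*, *Cxcl16*, and *Cx3cl1*, and with the LV libraries included their adjusted *P* values were 0.281, 0.27, 0.288, 0.263, and 0.499. Regions stood in for replicates in these tests, and it is not known if 1 set of hearts gave all regions.

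Counted by direction alone, after the values had been seen, 23 of the 52 members were lower in TKO in all 3 zones after MI, beside 23.6% of all genes, and 7 were higher in all 3, beside 22.3%. The 7 were *Ccl3*, *Ccl4*, *Cxcl2*, *Ccl11*, *Ccl27a*, *Cxcl12*, and *Ccr10*. With total counts in place of TMM, 25 were lower (36.4% of all genes) and 4 higher (10.7% of all genes), since *Cxcl2*, *Cxcl12*, and *Ccl27a* were then no longer higher in the infarct zone.

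**Figure D3:**
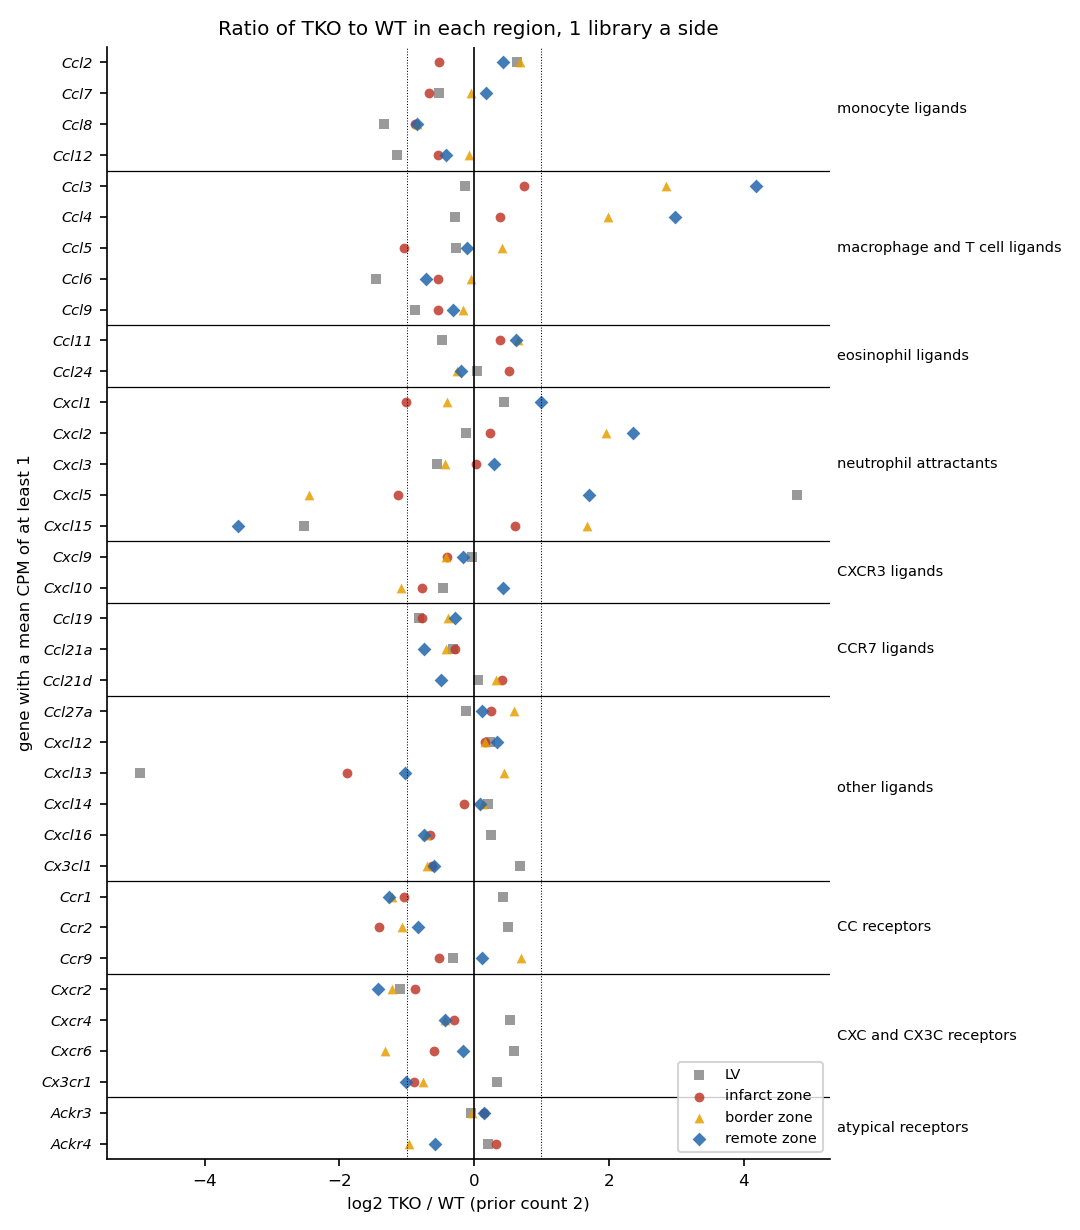
Log2 ratio of TKO to WT in each of the 4 regions for 36 tested members, after a prior count of 2, with genes in rows grouped by role and dotted lines at 2-fold. *Ccl3*, *Ccl4*, and *Cxcl2* lie far to the right in the border and remote zones, and *Ccr1*, *Ccr2*, and *Cx3cr1* lie to the left in the 3 zones after MI and to the right in the LV.

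Monocyte and macrophage receptors were lower in TKO in each zone after MI. For *Ccr2*, whose levels are given above, the ratio of TKO to WT was 0.375 (95% interval 0.337 to 0.416) in the infarct zone, 0.471 (95% interval 0.389 to 0.568) at the border, and 0.555 (95% interval 0.442 to 0.696) in the remote zone. In the LV it was 1.44 (95% interval 1.04 to 2), so that the WT library was the lower of the pair there. *Ccr1* was at 1.68 CPM in WT and 2.28 in TKO hearts in the LV, 11.4 CPM in WT and 5.51 in TKO hearts in the infarct zone, 5.58 CPM in WT and 2.36 in TKO hearts in the border zone, and 2.96 CPM in WT and 1.2 in TKO hearts in the remote zone. Its ratios were 0.483, 0.423, and 0.404 in the infarct, border, and remote zones, and 1.36 in the LV. *Cx3cr1* was at 3.1 CPM in WT and 3.94 in TKO hearts in the LV, 22.2 CPM in WT and 11.9 in TKO hearts in the infarct zone, 6.07 CPM in WT and 3.57 in TKO hearts in the border zone, and 4.24 CPM in WT and 2.06 in TKO hearts in the remote zone. Its ratios were 0.535, 0.589, and 0.486 after MI and 1.27 in the LV. *Cxcr4* (ratios 0.81, 0.742, and 0.737) was lower in TKO in the same 3 zones and higher in the LV, where the ratio was 1.45.

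The ratio of TKO to WT for the summed leukocyte markers was 0.734 in the LV, 0.606 in the infarct zone, 0.657 at the border, and 0.698 in the remote zone, with all 5 markers lower in TKO in every region. In the edgeR genotype test across regions, which called no chemokine member, 2 of these 5 were called lower in TKO, beside 0.138% of all genes called. For the 10 macrophage and monocyte markers the ratio was 0.858, 0.75, 0.752, and 0.694 in the same order, and none was called between genotypes. Cardiomyocyte markers went the other way after MI, with ratios of 2.28, 1.31, and 1.19 in the infarct, border, and remote zones. The part of these cells in the receptor ratios was not tested.

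*Cxcr2* was lower in TKO in all 4 regions, with ratios of 0.436 (95% interval 0.216 to 0.834) in the LV, 0.543 (95% interval 0.442 to 0.664) in the infarct zone, 0.422 (95% interval 0.3 to 0.587) at the border, and 0.349 (95% interval 0.196 to 0.598) in the remote zone. Across regions the log2 difference was -1.18 ± 0.19 SE, adjusted *P* = 0.134. Of 5 measured neutrophil markers, 5 were lower in TKO in the infarct zone, 5 at the border, and 4 in the remote zone, where *Mmp8* was at 0.0658 CPM in WT and 0.166 CPM in TKO hearts. None of the 3 tested (*S100a8*, *S100a9*, and *Csf3r*) was called between genotypes, with adjusted *P* of 0.191 to 0.277 in edgeR. *S100a8* was at 0.511, 12.7, 10.4 and 3.16 CPM in the WT LV, infarct, border and remote libraries and 0.464, 6.79, 2.23 and 0.964 CPM in the TKO libraries in that order. The TKO library was the lower in each zone after MI, and both LV libraries were low and alike. *Cxcr6* was lower in TKO in the infarct zone (ratio 0.655) and border zone (ratio 0.371), with 7 and 6 counts in the WT and TKO remote zones.

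Both transmembrane ligands followed their receptors' direction after MI. *Cx3cl1* had ratios of 0.651 (95% interval 0.601 to 0.705), 0.614 (95% interval 0.528 to 0.711), and 0.663 (95% interval 0.563 to 0.78) in the infarct, border, and remote zones but 1.61 (95% interval 1.36 to 1.9) in the LV. The departure of the LV from the other 3 regions was called for *Cx3cl1* (log2 1.32 ± 0.14 SE, adjusted *P* = 0.0449), the 1 called member of 37, beside 0.646% of all genes called. It rests on 1 TKO and 1 WT LV library, and with a lower filter of 0.2 CPM on the mean the adjusted *P* was 0.0511. On simulated counts the departure test called only 12% of 2-fold departures of the infarct zone, so a missing call says little. No member was called for a departure of the infarct, border, or remote zone. There 1, 0, and 1 members had an unadjusted *P* under 0.05, beside 1018, 196, and 223 of the 12999 genes tested. *Cxcl16* had ratios of 0.634, 0.605, and 0.593 after MI and 1.19 in the LV.

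*Ccl8* was lower in TKO in every region, with ratios of 0.353 (95% interval 0.154 to 0.741) in the LV, 0.542 (95% interval 0.476 to 0.617) in the infarct zone, 0.549 (95% interval 0.422 to 0.711) at the border, and 0.545 (95% interval 0.394 to 0.748) in the remote zone. Across regions the difference was log2 -0.96 ± 0.15 SE, adjusted *P* = 0.131. Among CCR2 ligands *Ccl12* was lower in TKO in all 4 regions too, whereas *Ccl2* and *Ccl7* were not. *Ccl2* was at 2.37 CPM in WT and 3.75 in TKO hearts in the LV, 4.58 CPM in WT and 3.16 in TKO hearts in the infarct zone, 1.85 CPM in WT and 3 in TKO hearts in the border zone, and 1.87 CPM in WT and 2.56 in TKO hearts in the remote zone. Here TKO was the higher in the LV and the border and remote zones and the lower in the infarct zone. *Ccl12* had ratios of 0.431, 0.683, 0.949, and 0.742, and *Ccl7* of 0.69, 0.628, 0.965, and 1.13, in the LV, infarct, border, and remote zones.

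*Ccl3* and *Ccl4* were higher in TKO in all 3 zones after MI. *Ccl3* was at 14.9 CPM in WT and 13.6 in TKO hearts in the LV, 3.59 CPM in WT and 6.04 in TKO hearts in the infarct zone, 1.85 CPM in WT and 13.7 in TKO hearts in the border zone, and 0.559 CPM in WT and 11.3 in TKO hearts in the remote zone. All 3 WT zones after MI were low, with the remote zone lowest, while the TKO border and remote zones were near the level of both LV libraries. Ratios of TKO to WT were 0.911 (95% interval 0.788 to 1.05) in the LV, 1.68 (95% interval 1.36 to 2.09) in the infarct zone, 7.4 (95% interval 5.6 to 9.94) at the border, and 20.3 (95% interval 12.5 to 35.2) in the remote zone.

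*Ccl4* was at 4.75 CPM in WT and 3.9 in TKO hearts in the LV, 1.94 CPM in WT and 2.54 in TKO hearts in the infarct zone, 1.1 CPM in WT and 4.59 in TKO hearts in the border zone, and 0.329 CPM in WT and 3.06 in TKO hearts in the remote zone, which is the same order of libraries on a lower scale. Its ratios were 4.16 (95% interval 2.84 to 6.24) in the border zone and 9.3 (95% interval 4.83 to 20.0) in the remote zone. *Cxcl2*, on another chromosome, was at 14.7 CPM in WT and 13.6 in TKO hearts in the LV, 6.54 CPM in WT and 7.69 in TKO hearts in the infarct zone, 3.67 CPM in WT and 14.4 in TKO hearts in the border zone, and 2.17 CPM in WT and 11.4 in TKO hearts in the remote zone. The WT border and remote libraries were again the lowest 2 and the TKO border library was near the LV level. The ratios for *Cxcl2* were 3.93 (95% interval 3.18 to 4.87) and 5.27 (95% interval 4.04 to 6.96) in the border and remote zones. Across the 4 regions none of the 3 passed the genotype test, with adjusted *P* values of 0.306, 0.348, and 0.315.

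Neighbours of these genes did not share the pattern. *Cxcl1*, with the same letters at the NF-kappaB motif as *Cxcl2*, was at 2.99 CPM in WT and 4.09 in TKO hearts in the LV, 5.78 CPM in WT and 2.85 in TKO hearts in the infarct zone, 3.38 CPM in WT and 2.53 in TKO hearts in the border zone, and 1.74 CPM in WT and 3.52 in TKO hearts in the remote zone, and its ratios ran from 0.493 in the infarct zone to 2.02 in the remote zone. *Cxcl3* had ratios of 0.661, 1.02, 0.732, and 1.24 in the LV, infarct, border, and remote zones. *Ccl6* was at 30.3 CPM in WT and 11 in TKO hearts in the LV, 55.1 CPM in WT and 37.8 in TKO hearts in the infarct zone, 16.6 CPM in WT and 16 in TKO hearts in the border zone, and 25 CPM in WT and 15.3 in TKO hearts in the remote zone. Its ratio was lowest in the LV, at 0.364 (95% interval 0.317 to 0.417). *Ccl9*, beside it on chromosome 11, had ratios of 0.543, 0.689, 0.887, and 0.807, and *Ccl5* of 0.82, 0.483, 1.36, and 0.926, in the same order.

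Outside the family, *Tnf* and *Rgs1* are given as genes with like values, from lists of 9 inducers and 21 genes downstream of the receptors. Most genes on those lists went the other way. TKO was below WT for 7 inducers and 17 downstream genes at the border, and for 5 and 16 in the remote zone. *Tnf*, a macrophage cytokine and an inducer of chemokines, was at 4.05, 2.36, 1.49 and 0.756 CPM in the WT LV, infarct, border and remote libraries and 3.94, 2.18, 2.73 and 2.92 CPM in the TKO libraries in that order. *Rgs1*, a brake on chemokine receptor signalling, was at 4.34, 3.02, 0.519 and 0.526 CPM in the WT LV, infarct, border and remote libraries and 4.25, 2.96, 4.42 and 3.52 CPM in the TKO libraries in that order. For both, the WT border and remote libraries were the 2 lowest. Immediate early genes, 11 in all, summed to 271, 389, 324 and 308 CPM in the WT LV, infarct, border and remote libraries and 232, 372, 327 and 321 CPM in the TKO libraries in that order. Of the 11, TKO was below WT for 6 in the LV, 7 in the infarct zone, 7 at the border, and 2 in the remote zone. The part of handling or of any cell type in the *Ccl3*, *Ccl4*, and *Cxcl2* values was not tested.

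*Cxcl5*, a CXCR2 ligand of stromal and epithelial cells, did not keep its direction between regions. It was at 0.292 CPM in WT and 10.1 in TKO hearts in the LV, 14.6 CPM in WT and 6.68 in TKO hearts in the infarct zone, 8.02 CPM in WT and 1.42 in TKO hearts in the border zone, and 2.53 CPM in WT and 8.44 in TKO hearts in the remote zone. The WT LV library, with 8 counts, was the lowest of the 8 and the WT infarct library the highest. The ratio of TKO to WT was 34.7 (95% interval 17.3 to 81.1) in the LV, 0.457 (95% interval 0.392 to 0.531) in the infarct zone, 0.177 (95% interval 0.124 to 0.246) at the border, and 3.33 (95% interval 2.57 to 4.36) in the remote zone. The departure of the LV did not pass (log2 5.73 ± 1.89 SE, adjusted *P* = 0.232).

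*Cxcl13*, which attracts B cells, was at 7.08 CPM in WT and 0.154 in TKO hearts in the LV, 18 CPM in WT and 4.81 in TKO hearts in the infarct zone, 0.779 CPM in WT and 1.08 in TKO hearts in the border zone, and 1.28 CPM in WT and 0.598 in TKO hearts in the remote zone. The WT LV and infarct libraries and the TKO infarct library were high and the TKO LV library, with 4 counts, was the lowest. TKO over WT was 0.0218 (95% interval 0.0059 to 0.0568) in the LV, 0.268 (95% interval 0.226 to 0.316) in the infarct zone, 1.39 (95% interval 0.791 to 2.46) at the border, and 0.466 (95% interval 0.251 to 0.835) in the remote zone, and the departure of the LV did not pass (log2 -4.43 ± 1.14 SE, adjusted *P* = 0.163). Its receptor *Cxcr5*, with counts of 26, 40, 14 and 6 in the WT LV, infarct, border and remote libraries and 2, 16, 4 and 6 in the TKO libraries in that order, also had its lowest level in the TKO LV library. The B cell markers *Cd79a*, *Cd79b*, and *Ms4a1* summed to 7.85, 15.6, 3.67 and 3.25 CPM in the WT LV, infarct, border and remote libraries and 1.24, 8.3, 1.72 and 1.83 CPM in the TKO libraries in that order, with TKO below WT in the LV for all 3. In the LV the adipocyte markers differed too, at 56.5 CPM in WT and 0.888 CPM in TKO hearts. Their part in the *Cxcl13* and *Cxcr5* values was not tested.

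**Figure D4:**
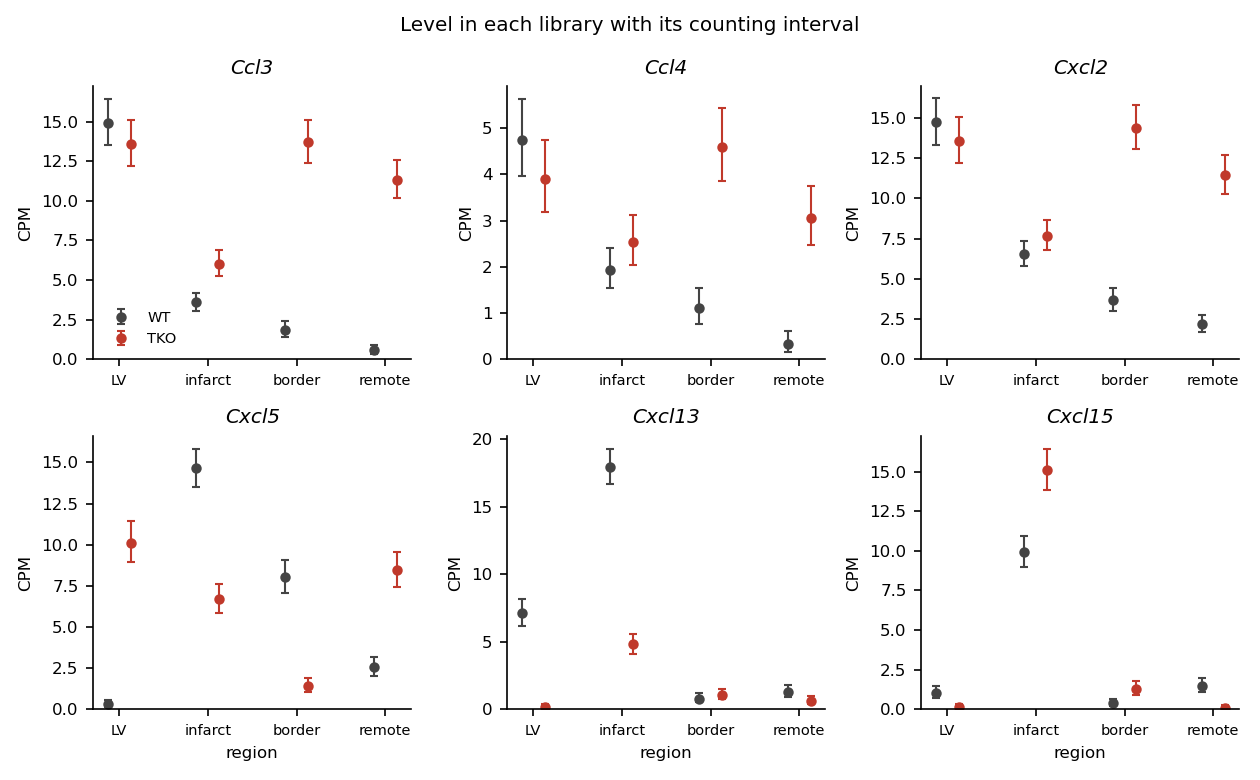
Level in CPM of *Ccl3*, *Ccl4*, *Cxcl2*, *Cxcl5*, *Cxcl13*, and *Cxcl15* in each region, with WT in grey and TKO in red, 1 library per point and bars for the exact 95% counting interval. The bars of WT and TKO lie apart for *Ccl3*, *Ccl4*, and *Cxcl2* in the border and remote zones, and for *Cxcl5* in all 4 regions with a sign that differs between them.

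The ratio for *Cxcl15* also changed sign, at 0.113 (95% interval 0.0221 to 0.367) in the LV, 1.52 (95% interval 1.34 to 1.73) in the infarct zone, 3.59 (95% interval 1.8 to 7.78) at the border, and 0.0459 (95% interval 0.0054 to 0.176) in the remote zone. For the summed lung epithelium markers the ratios were 0.969, 2.47, 0.902, and 0.059, with TKO above WT in the infarct zone and below it in the remote zone as for *Cxcl15*. Their part in the ratio was not tested.

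Among ligands of the CCR7 axis, *Ccl21a* and *Ccl19* were lower in TKO in all 4 regions. *Ccl21a* had ratios of 0.801 (95% interval 0.679 to 0.943), 0.819 (95% interval 0.778 to 0.861), 0.751 (95% interval 0.679 to 0.83), and 0.593 (95% interval 0.517 to 0.679) in the LV, infarct, border, and remote zones, and *Ccl19* of 0.551, 0.581, 0.759, and 0.814. *Ccl21d*, which shares most of its sequence with *Ccl21a*, had ratios of 1.04, 1.33, 1.25, and 0.711, so that the copies were not in one direction. *Ccr7* was lower in TKO in all 4 regions, with counts of 12, 101, 30 and 16 in the WT LV, infarct, border and remote libraries and 5, 35, 12 and 7 in the TKO libraries in that order.

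*Cxcl12* was the only member higher in TKO in all 4 regions, by a small margin, with ratios of 1.18 (95% interval 1.13 to 1.24), 1.11 (95% interval 1.08 to 1.16), 1.12 (95% interval 1.08 to 1.16), and 1.27 (95% interval 1.22 to 1.32) in the LV, infarct, border, and remote zones and a genotype difference of log2 0.23 ± 0.08 SE, adjusted *P* = 0.266. With total counts in place of TMM it was not higher in the infarct zone. *Ackr3* had ratios between 0.965 and 1.11. *Cxcl14* lay between 0.898 and 1.15, *Ccl27a* between 0.922 and 1.51, and *Cxcl9* between 0.744 and 0.979. *Cxcl10* had ratios of 0.706, 0.578, 0.451, and 1.37. Of the eosinophil attractants, *Ccl11* ran from 0.715 to 1.59 and *Ccl24* from 0.826 to 1.45.

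*Ackr2*, which degrades inflammatory CC chemokines, had counts of 33, 51, 32 and 0 in the WT LV, infarct, border and remote libraries and 3, 0, 0 and 36 in the TKO libraries in that order. It was at or near 0 in 4 libraries and at 32 to 51 counts in the other 4, which do not follow genotype or region. *Ackr1*, the venular chemokine carrier that shares sequence with *Cadm3*, had counts of 10, 58, 14 and 10 in the WT LV, infarct, border and remote libraries and 0, 29, 9 and 5 in the TKO libraries in that order. *Ackr4* had ratios of 1.16, 1.25, 0.509, and 0.664, and *Ccr9* of 0.78, 0.687, 1.66, and 1.09.

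The remaining scarce members are given by counts. *Ccl22* and *Ccl17*, ligands of CCR4 made by dendritic cells, had 93 and 30 counts in the WT infarct zone, 19 and 13 in the TKO infarct zone, and at most 17 elsewhere. *Ccr4* had 22 and 8 counts in the WT and TKO infarct zones and at most 9 elsewhere, and *Xcl1*, a ligand for cross-presenting dendritic cells, had 31 and 8 counts there and at most 4 elsewhere. *Ccr6* had 26 and 12 counts in the infarct zones and at most 6 elsewhere. *Ccr10*, a receptor for CCL27 and CCL28, had 6 to 41 counts per library. *Ccl28* had 2 to 31, *Ccl25* 12 to 37, and *Ccl21b* 0 to 4.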

How the data were processed

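RNA from 8 heart tissue libraries was analysed. The authors trimmed reads with Trim Galore 0.6.5, quantified transcripts with Kallisto 0.46 on the mm10 transcriptome, and summed them to genes with tximport, and the deposited values are estimated counts written as whole numbers, without normalization. No rounding was needed, and 0 value columns were left unmapped. edgeR 4.0.16 (under R 4.3.3) gave ratios and tests, with TMM factors drawn from 12999 genes whose mean reached 1 CPM. The factors were 1.54 and 1.26 for the WT and TKO infarct zones and 0.866 to 0.955 for the other libraries, so that scaling weighs most on infarct comparisons. Because each group held 1 library, a ratio between 2 libraries carries an exact (Clopper-Pearson) 95% interval that covers counting error only and no *P* value. A member counted as 2-fold different after a prior count of 2 was added. A count of 3 was the floor: no ratio is given when both libraries were at or under it, and a library at 0 was set to it.

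Differences between genotypes (region as block) and between each zone and the LV (genotype as term) came from 1 additive quasi-likelihood fit of edgeR to all 8 libraries, two-sided, with Benjamini-Hochberg adjustment over all genes tested and a threshold of 0.05. The departure of a region was the interaction of genotype with that region. The SE beside a log2 value is its absolute value divided by the square root of the quasi-likelihood F statistic. It is not an SE reported by the fit itself. The steps were checked on simulated counts. There edgeR called 79.8% of 2-fold and 97.9% of 4-fold genotype changes, and 58.2% and 93.9% of infarct zone changes. For a departure of the infarct zone it called 12% and 74.5%, so that test could miss most 2-fold departures. Alternatives were DESeq2 1.42.0, other scalings and filters, a prior count of 0.5, and leaving libraries out.

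Named members were fixed by role (the main ligands and receptors), joined by any other member called in a test or at least 2-fold different the same way in at least 3 regions. The scarce members, *Cxcl3*, and *Ccl27a* were named to account for the rest. Of the 52, 1 member is not reported here by name or drawn, though it is part of every count. Members and lists were chosen with earlier results of these data known, and the lists of lung epithelium and immediate early genes, like the counts of members with the same direction in 3 zones, were chosen after the values had been seen. Placement came from GENCODE M21 on GRCm38, in which all 52 members were found by identifier, and promoter sequences from RefSeq on GRCm38.p6. Protein sequences were not used here.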

Additional observations from a re-analysis of the deposited data

Results flagged for a closer look

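*Cx3cl1* is singled out because its genotype difference in the LV departed from that in the other 3 regions by 1.32 on the log2 scale (edgeR's quasi-likelihood test, adjusted *P* = 0.0449, 1 library of each genotype in the LV). It was higher in TKO in the LV and lower in TKO in the infarct, border, and remote zones. With the filter at a mean of 0.2 CPM the adjusted *P* was 0.0511. No group held enough libraries for a search for outlying samples.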

How the results depend on the processing

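No called member changed direction under the alternatives run. With total counts, *Cxcl2*, *Cxcl12*, and *Ccl27a* were no longer higher in the TKO infarct zone, and the infarct calls over all genes moved from 3670 higher and 3715 lower to 7878 and 1079. Genotype calls over all genes were 10 higher and 8 lower with edgeR and 128 and 214 with DESeq2. Among the 2-fold ratios of single members, 471 values moved by less than their interval and 45 by more, and among called members 172 values kept their call and 19 lost it. The 22 members called in the infarct zone became 17 to 23 when 1 library was left out, 22 with DESeq2, and 27 with total counts. With only the members at a mean of at least 1 CPM, the counts of members at least 2-fold lower in TKO were 6 in the LV, 6 in the infarct zone, and 6 in the border zone (3.56%, 1.45%, and 3.25% of all genes with that mean), and 5 members exceeded the TKO LV at least 2-fold in the TKO remote zone (3.06%). With a prior count of 0.5, the counts of members at least 2-fold higher in TKO were 4 in the LV, 1 in the infarct zone, and 7 in the border zone (5.34%, 5.1%, and 4.97% of all genes). With total counts, 23 members were at least 2-fold lower in the TKO infarct zone, beside 8.35% of all genes.

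Calls between genotypes were 0 with edgeR, 3 with DESeq2 (2.63% of all genes), 1 with total counts (0.431%), and 0 to 5 when 1 region was left out, the 5 without the LV libraries (0.61%). Those in the border zone were 2 (0.715%), against 5 with DESeq2 (4.43%), 4 with total counts (1.54%), and 0 to 7 when 1 library was left out, being 0 without the WT or the TKO border library, 1 without the WT LV library (1.42%), and 7 without the TKO LV library (2.97%). In the remote zone they were 0, against 1 with DESeq2 (1.25%), 1 with total counts (0.138%), and 0 to 1 when 1 library was left out. The call for the departure of the LV became 0 at a mean of 0.2 CPM. With every gene with any count, or a mean of at least 0.2 CPM, *Cxcl14* was also called lower in the infarct zone. Without the TKO LV library the infarct log2 values were -2.78 for *Ccl3*, -1.36 for *Ccl11*, and 5.41 for *Cxcl5*, against -1.81, -0.88, and 1.28 in the main fit. Without the WT LV library the value for *Cxcl13* was 5.43, against 2.02. Each of these fits rests on 1 LV library, so that a single LV library weighed heavily on these 4 members. The cause of these shifts was not tested. In the infarct zone *Ccl5* lost its call without the WT infarct, WT LV, or TKO LV library, *Cxcl15* without the TKO infarct or TKO LV library, *Ccr9* without either LV library, *Ackr4* without the TKO infarct or WT LV library, *Ccr1* and *Ccl12* without the WT infarct library, and *Ccl6* without the TKO infarct library. Without the WT infarct library *Ccr9* and *Cxcr6* fell below the mean of 1 CPM and were not tested.

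No paired analysis was possible because the labels carry no replicate numbers, apart from the test between genotypes, which takes the 4 regions as blocks. Depth limits the 15 members below a mean of 1 CPM, for which a few counts decide a ratio, and without replicates the spread between mice is unknown.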

Other observations

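Other marker lists were read beside the chemokine genes. Endothelial markers summed to between 539 and 672 CPM in all 8 libraries. T cell markers summed to 17.2 CPM in the WT infarct zone and 9.67 CPM in the TKO infarct zone, against 2.55 to 5.73 CPM in the other 6 libraries, and natural killer cell markers to 2.78 and 1.20 CPM, against 0.348 to 1.48 CPM. Dendritic cell markers, a list that holds the members *Ccl17* and *Ccl22*, summed to 22.7 and 17.6 CPM in the WT and TKO infarct zones and 13.8 to 17.3 CPM elsewhere. Mast cell markers lay between 0.876 and 4.89 CPM. Mesothelial markers summed to 49.2 and 31.9 CPM in the WT and TKO infarct zones and to 3.98 to 12.6 CPM elsewhere. Red blood cell genes, also high in both infarct libraries at 4838 and 5109 CPM, lay between 2137 and 3151 CPM elsewhere. The summed macrophage and monocyte markers were at 1726 and 1294 CPM in the WT and TKO infarct zones and 356 to 649 CPM elsewhere, and the fibroblast markers at 4549 and 3803 CPM and at 648 to 1578 CPM.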
